A study of Mus musculus with 15 samples.

Results

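The 10 genes described here encode proteins that bring leukocytes into tissue: the chemokine ligands Ccl2, Ccl5, Ccl6, Ccl24, Cxcl1 and Cxcl16, the receptors Ccr2 and Cx3cr1, and the adhesion molecules Vcam1 and Icam1. They were taken by symbol from the deposited count tables, where they are 10 of 26839 genes, and all 10 were present in all 3 tables. Bulk RNA sequencing covered 5 groups of liver samples from male C57BL/6J mice, with 3 libraries per group and 15 in all, all carrying an adeno-associated virus of serotype 8 (AAV8) and all at 16 weeks of diet. On the FPC NASH diet with sugar water, a diet for non-alcoholic steatohepatitis, 1 group expressed Activin A and its control expressed GFP, both from the liver-specific thyroxine binding globulin (TBG) promoter. On the same diet and water, another group carried a short hairpin RNA against Gpnmb and its control a scramble hairpin, both from the H1 promoter. The remaining GFP group (TBG promoter) ate standard chow with normal water. Activin A belongs to the secreted ligands of the TGF-beta family. Gpnmb codes for a membrane glycoprotein found on macrophages, among other cell types.

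Chemokines are small secreted proteins that bind G protein-coupled receptors and direct the migration of leukocytes. The Ccl2 and Ccr2 pair is known for the recruitment of bone marrow monocytes to the injured liver, where they become macrophages. Vcam1 and Icam1, on endothelium and other cells, bind the integrins of arriving leukocytes and allow firm adhesion. Cxcl16 is a membrane-bound ligand of Cxcr6, and Cx3cr1 is the receptor of the membrane-bound ligand Cx3cl1.

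In GRCm38, Ccl2 (ENSMUSG00000035385, 82035571 to 82037453), Ccl5 (ENSMUSG00000035042, 83525778 to 83530518), Ccl6 (ENSMUSG00000018927, 83587882 to 83593087) and Cxcl16 (ENSMUSG00000018920, 70453983 to 70459984) lie on chromosome 11. Cxcl1 (ENSMUSG00000029380, 90891241 to 90893115) and Ccl24 (ENSMUSG00000004814, 135569937 to 135573049) lie on chromosome 5. Icam1 (ENSMUSG00000037405, 21015985 to 21028817), Cx3cr1 (ENSMUSG00000052336, 119901616 to 120069879) and Ccr2 (ENSMUSG00000049103, 124101950 to 124113557) lie on chromosome 9, and Vcam1 (ENSMUSG00000027962, 116109949 to 116129688) on chromosome 3. All 10 are protein-coding genes in the deposited annotation, and the values are counts over the whole gene.

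Promoter sequences were held for 5 of the 10 (RefSeq, GRCm38.p6, 250 bases before to 50 bases after the start site). These start sites need not be the gene starts of the deposited annotation. The Ccr2 window (124101933 to 124102232) lies almost wholly inside its gene, which begins at 124101950. The Cx3cr1 window (120068247 to 120068546) lies inside its gene, which on the minus strand begins at 120069879. They are shown for Cxcl1, whose level varied most between libraries of a group, and for a ligand, a receptor and an adhesion molecule that were lower with both Activin A and the Gpnmb hairpin. Capitals mark matches to the NF-kB consensus, searched on both strands.
Cxcl1 promoter (chr5:90890995-90891294, plus strand): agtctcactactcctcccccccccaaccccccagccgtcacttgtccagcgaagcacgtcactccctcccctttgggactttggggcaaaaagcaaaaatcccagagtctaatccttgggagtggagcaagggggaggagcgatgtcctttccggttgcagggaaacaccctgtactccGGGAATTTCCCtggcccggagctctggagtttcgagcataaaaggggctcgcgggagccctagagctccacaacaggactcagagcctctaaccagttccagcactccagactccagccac
Ccl6 promoter (chr11:83593038-83593337, minus strand): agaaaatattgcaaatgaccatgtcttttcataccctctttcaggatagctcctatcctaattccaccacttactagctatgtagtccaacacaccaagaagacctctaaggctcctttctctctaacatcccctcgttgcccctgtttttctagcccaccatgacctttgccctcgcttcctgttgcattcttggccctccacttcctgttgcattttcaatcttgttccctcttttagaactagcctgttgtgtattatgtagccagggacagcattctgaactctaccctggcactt
Ccr2 promoter (chr9:124101933-124102232, plus strand): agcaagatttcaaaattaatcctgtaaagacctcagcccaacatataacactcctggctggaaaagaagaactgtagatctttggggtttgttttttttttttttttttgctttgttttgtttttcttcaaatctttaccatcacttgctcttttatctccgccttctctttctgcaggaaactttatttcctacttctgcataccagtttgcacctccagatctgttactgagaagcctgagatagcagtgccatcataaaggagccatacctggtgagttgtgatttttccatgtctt
Icam1 promoter (chr9:21015690-21015989, plus strand): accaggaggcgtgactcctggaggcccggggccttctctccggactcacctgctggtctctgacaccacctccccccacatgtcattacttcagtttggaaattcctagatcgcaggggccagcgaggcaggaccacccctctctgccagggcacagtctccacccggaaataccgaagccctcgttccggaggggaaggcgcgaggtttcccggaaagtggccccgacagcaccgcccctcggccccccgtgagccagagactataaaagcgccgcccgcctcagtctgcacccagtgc

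Among the 5 promoters, which include that of Cx3cr1, the NF-kB consensus GGGRNWYYCC matched in that of Cxcl1 alone. Here R stands for A or G, W for A or T, Y for C or T and N for any base. The 2 matches overlap on opposite strands and begin 71 and 70 bases before the start site. The consensus matched in 4.51% of the 32851 promoters of this length. It replaced a looser pattern with free middle letters, which matched in 3 of the 5 and in 50.8% of all promoters, after that share had been seen. The AP-1 motif TGANTCA (7.81% of promoters), the interferon-stimulated response element (3.44%) and the PU.1 motif GAGGAAGT (3.20%) were found in none of the 5. A match is a description of the letters in this window and no evidence of binding. A window without a match may still hold a site that departs from these letters.

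Libraries held between 15276879 (chow) and 23467867 (scramble) counts. Gpnmb was lower with its hairpin by a log2 fold change of -3.95 (edgeR adjusted p = 1.15e-05), and Inhba, which encodes the Activin A subunit, was higher with Activin A by 1.63 (edgeR adjusted p = 0.000192), as the labels state. Gpnmb was also lower with Activin A (-2.93) and Inhba higher with the Gpnmb hairpin (0.92, edgeR adjusted p = 0.00325). All 8 hepatocyte markers were counted in every group, and their calls are given with the other marker lists. Levels below are CPM (counts scaled to 1000000 per library, with TMM factors over all 15 libraries), folds are log2 with a standard error (SE), and a gene was called at an adjusted p under 0.05 over all genes tested in the comparison.

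On the NASH diet, 8 of the 10 transcripts were higher in GFP livers than in chow GFP livers, against 11.2% of all 14388 genes tested, and none was lower by edgeR or DESeq2. Ccr2, Ccl2, Ccl5, Cx3cr1, Vcam1 and Ccl6 rose 4.91-fold to 9.11-fold, Cxcl16 3.16-fold and Icam1 1.97-fold, while Ccl24 and Cxcl1 did not pass. The median log2 fold change of the 10 was 2.36, beside -0.01 over all genes tested. The 3 NASH diet libraries lay above the 3 chow libraries for 9 of the 10, which held for 19.0% of all genes. Members and lists were chosen with earlier results of these data known. Their shares, here and below, are therefore descriptions and not an unbiased excess over all genes. In bulk tissue, more cells of a type and more RNA per cell cannot be told apart. The labels do not say that each library is its own animal, and p-values then reflect only the spread between these samples, which may be technical.

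With Activin A, 7 of the 10 were lower than in GFP livers on the same diet, against 3.86% of all 14598 genes, and none was higher by edgeR or DESeq2. The median log2 fold change of the 10 was -1.14 (0.00 over all genes tested), and the libraries did not overlap for 9, all lower with Activin A, against 13.4% of all genes. The count of 7 rests on few libraries: it was 3 without Activin A library 1 and 4 without Activin A library 2. With the Gpnmb hairpin, 8 of the 10 were lower than with the scramble hairpin, against 12.0% of all 14845 genes, and none was higher by either tool. The median there was -1.04 (0.00 over all genes). The diet and Activin A comparisons share the NASH diet GFP libraries, so their log2 fold changes are not independent. Without scaling factors, using library size alone, the members called numbered 8 higher on the diet, 8 lower with Activin A and 8 lower with the hairpin. That scaling shifted the log2 fold changes by 0.25 on the diet and by -0.11 with the hairpin, and it split all called genes into 2671 higher and 405 lower on the diet (1607 and 838 with TMM) and 1006 and 2464 with the hairpin (1813 and 1788).

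**Figure D1:**
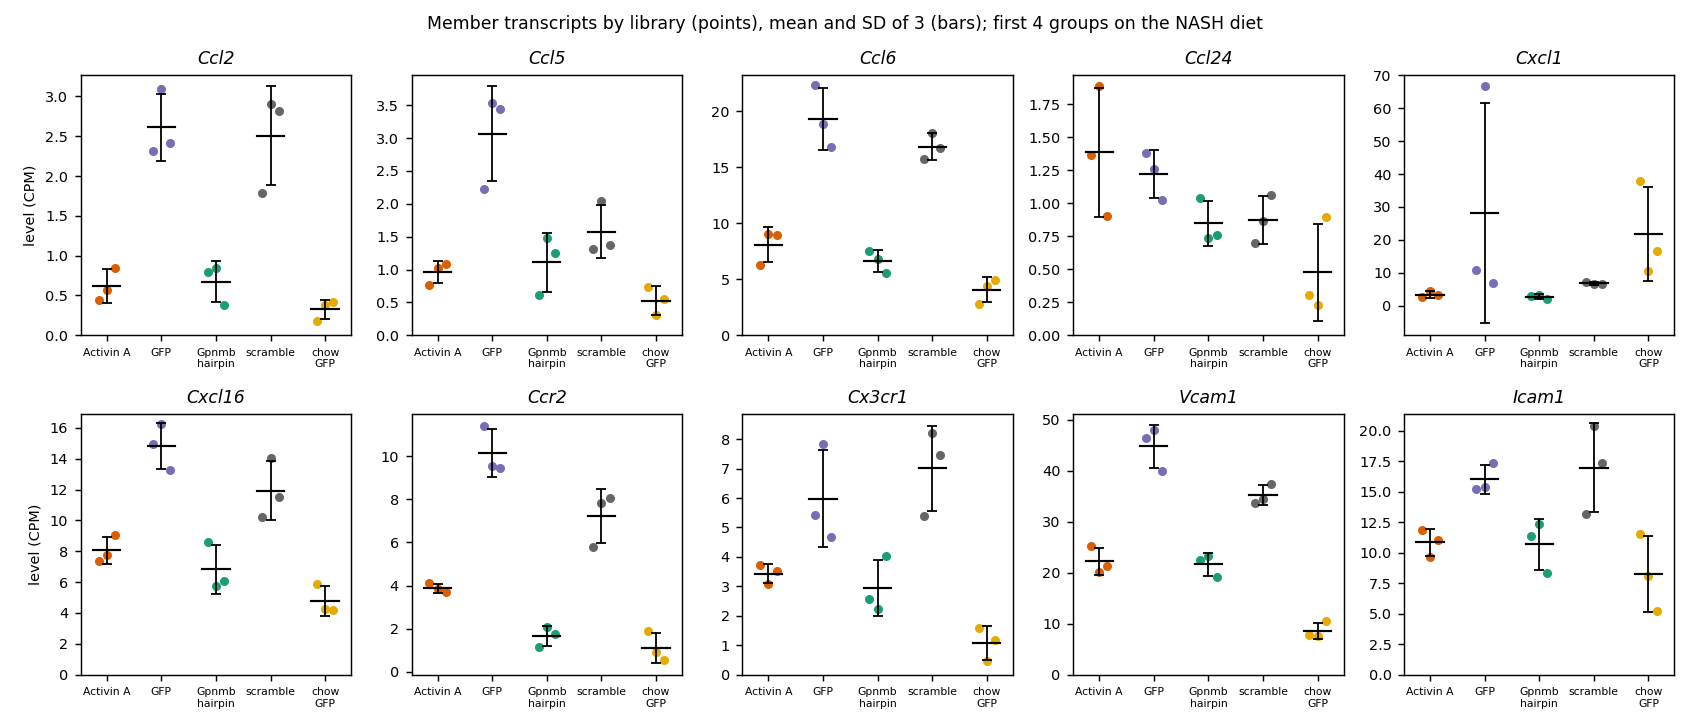
Levels of the 10 transcripts in CPM (vertical axes, linear) in the 5 groups of 3 libraries, with points for libraries and bars for the mean and SD. Ccl2, Ccl6, Cxcl1, Cxcl16, Ccr2, Cx3cr1, Vcam1 and Icam1 separate the Activin A and Gpnmb hairpin libraries from their own controls. Cxcl1 has 1 high library in the NASH diet GFP group (66.7 CPM) and 1 in the chow group (38 CPM).

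Ccl2, the main ligand of Ccr2 and an attractant of monocytes, was among the lowest of the ligands in counts and among the largest in fold change. Ccl2 stood at 0.437, 0.571 and 0.846 CPM in Activin A livers, 2.32, 3.09 and 2.42 CPM in GFP livers on the NASH diet and 0.182, 0.378 and 0.414 CPM in chow GFP livers. Its level was 0.796, 0.844 and 0.381 CPM in Gpnmb hairpin livers and 1.79, 2.91 and 2.82 CPM in scramble livers. Both treated groups lay below both NASH diet control groups with no overlap, and the chow libraries lay lowest apart from hairpin library 3. The log2 fold change was 3.04 ± 0.47 (SE) for the diet (edgeR adjusted p = 0.00191), -2.08 ± 0.37 (SE) with Activin A (edgeR adjusted p = 0.012) and -1.89 ± 0.38 (SE) with the Gpnmb hairpin (edgeR adjusted p = 0.00542). These rest on 32, 161, 36, 180 and 14 counts over the Activin A, GFP, Gpnmb hairpin, scramble and chow groups. The Activin A call was lost without Activin A library 1 (log2 fold change -1.88, edgeR adjusted p = 0.0614) or library 2 (-2.03, 0.0567).

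Ccl5 (RANTES), a ligand of Ccr1 and other receptors made by T cells, macrophages and other cells, was called lower with Activin A and not with the hairpin. Ccl5 stood at 0.765, 1.03 and 1.09 CPM in Activin A livers, 2.23, 3.53 and 3.44 CPM in GFP livers on the NASH diet and 0.729, 0.302 and 0.552 CPM in chow GFP livers. Its level was 0.612, 1.48 and 1.25 CPM in Gpnmb hairpin livers and 1.31, 2.04 and 1.37 CPM in scramble livers. The Activin A libraries lay below the GFP libraries, whereas hairpin and scramble libraries overlapped. Ccl5 rose on the diet by 2.53 ± 0.45 (SE) (edgeR adjusted p = 0.00397) and fell with Activin A, with a log2 fold change of -1.67 ± 0.34 (SE) (edgeR adjusted p = 0.0202). With the hairpin it was -0.49 ± 0.39 (SE) (edgeR adjusted p = 0.399), and the difference between the 2 effects did not pass (-1.19 ± 0.54 (SE), edgeR adjusted p = 0.273). Leaving out Activin A library 1, 2 or 3 ended the Activin A call (edgeR adjusted p = 0.0925, 0.0697 and 0.0809) and so did leaving out GFP library 2 (0.0643).

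Ccl6, a CC chemokine of macrophages and other myeloid cells in rodents, had the steadiest pattern of the ligands. Ccl6 stood at 6.28, 9.02 and 8.94 CPM in Activin A livers, 22.3, 18.8 and 16.8 CPM in GFP livers on the NASH diet and 2.8, 4.38 and 4.96 CPM in chow GFP livers. Its level was 7.53, 6.8 and 5.55 CPM in Gpnmb hairpin livers and 15.7, 18.1 and 16.7 CPM in scramble livers. Each of these groups kept clear of the group it was compared with. Its log2 fold change was 2.30 ± 0.24 (SE) for the diet (edgeR adjusted p = 0.000287), -1.26 ± 0.18 (SE) with Activin A (edgeR adjusted p = 0.00444) and -1.35 ± 0.14 (SE) with the hairpin (edgeR adjusted p = 0.000122). All 3 calls held in each of the 12 alternative analyses.

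Ccl24 (eotaxin-2), an eosinophil attractant that binds Ccr3, was the member that passed in none of the 3 comparisons. Ccl24 stood at 1.37, 1.88 and 0.906 CPM in Activin A livers, 1.38, 1.26 and 1.02 CPM in GFP livers on the NASH diet and 0.304, 0.227 and 0.896 CPM in chow GFP livers. Its level was 1.04, 0.738 and 0.762 CPM in Gpnmb hairpin livers and 0.697, 0.867 and 1.06 CPM in scramble livers. Activin A overlapped GFP and the hairpin overlapped scramble, and NASH diet GFP lay just above the highest chow library. Its log2 fold change was 1.39 ± 0.58 (SE) for the diet (edgeR adjusted p = 0.134), 0.18 ± 0.38 (SE) with Activin A (edgeR adjusted p = 0.854) and -0.06 ± 0.38 (SE) with the hairpin (edgeR adjusted p = 0.929). Only 21 counts stood behind the chow group, and the diet change passed without chow library 3 (2.18, edgeR adjusted p = 0.0450) and with all 15 libraries in 1 fit (1.35, 0.0488).

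Cxcl1, a neutrophil attractant that signals through Cxcr2, set 1 library of a group far apart from the others in both GFP groups. Cxcl1 stood at 2.51, 4.4 and 3.2 CPM in Activin A livers, 10.7, 66.7 and 6.83 CPM in GFP livers on the NASH diet and 38, 10.6 and 16.6 CPM in chow GFP livers. Its level was 2.88, 3.38 and 2.01 CPM in Gpnmb hairpin livers and 7.19, 6.46 and 6.58 CPM in scramble livers. GFP library 2 and chow library 1 were high, and Activin A and Gpnmb hairpin libraries all lay below every other library. The diet change was 0.39 ± 0.73 (SE) (edgeR adjusted p = 0.773), and without GFP library 2 it was -1.28. With Activin A the change was -3.06 ± 0.78 (SE) and missed the threshold (edgeR adjusted p = 0.0528), while it passed in 8 of 12 alternatives. Among these were the fits without GFP library 2, where it was -1.38 (edgeR adjusted p = 0.0385), without GFP library 1 (-3.45, 0.0400) and without GFP library 3 (-3.52, 0.00593). It did not pass without Activin A library 1, 2 or 3, and the edgeR adjusted p was highest without Activin A library 1 (0.206). With the hairpin Cxcl1 fell, with a log2 fold change of -1.29 ± 0.21 (SE) (edgeR adjusted p = 0.0019), and the call was lost with all 15 libraries in 1 fit (adjusted p = 0.248). The authors' deposited table gives Cxcl1 an adjusted p of 0.0319 with Activin A, and it is the 1 member on which that table and edgeR differ in the 3 comparisons.

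The gene whose group means ran closest to those of Cxcl1 was Saa1, a serum amyloid A gene of the acute phase response, at a distance of 0.525 on the log2 CPM scale over the 5 group means. Saa1 stood at 21.2, 22.1 and 26.2 CPM with Activin A, 82, 998 and 85 CPM with GFP on the NASH diet and 625, 38.7 and 223 CPM in chow GFP livers. It stood at 25.2, 23.2 and 34.5 CPM in Gpnmb hairpin livers and 47.8, 66.6 and 60.7 CPM in scramble livers. GFP library 2 and chow library 1 were the highest libraries of their groups for Saa1 as well. The group means used for the match include these libraries. The second nearest gene, Raet1d, lay at a distance of 0.849. Raet1d stood at 22.2, 23.4 and 12.9 CPM in NASH diet GFP livers. In chow GFP livers it stood at 7.48, 17.1 and 23.6 CPM, so chow library 1 was its lowest there. Saa1 belongs to a family of near-identical genes, and the handling of reads shared between them is not given here.

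**Figure D2:**
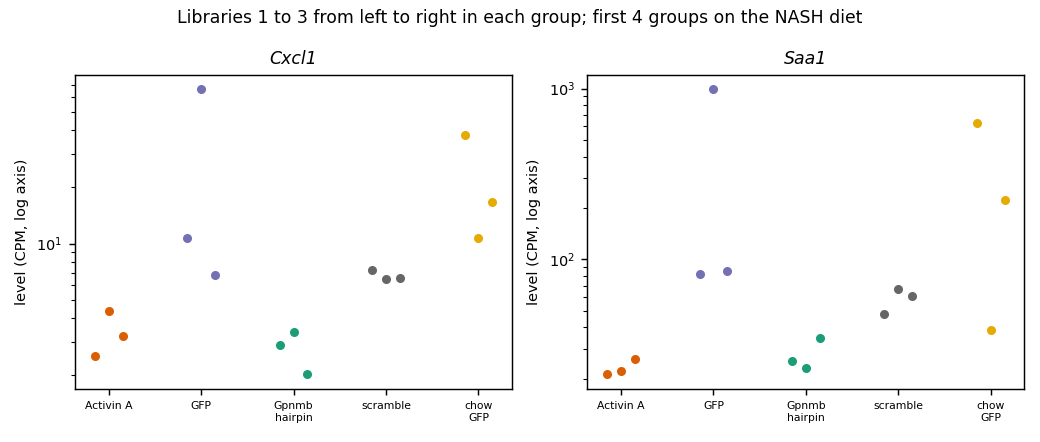
Cxcl1 and Saa1 levels in CPM on log axes, libraries 1 to 3 from left to right in each of the 5 groups. The same GFP library (66.7 CPM for Cxcl1, 998 CPM for Saa1) and the same chow library (38 and 625 CPM) are the highest of their groups in both panels.

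Cxcl16, the transmembrane ligand of Cxcr6, was the most moderate of the called ligands. Cxcl16 stood at 7.37, 7.77 and 9.06 CPM in Activin A livers, 14.9, 16.2 and 13.3 CPM in GFP livers on the NASH diet and 5.9, 4.23 and 4.21 CPM in chow GFP livers. Its level was 8.63, 5.75 and 6.1 CPM in Gpnmb hairpin livers and 10.2, 14.1 and 11.5 CPM in scramble livers. No library of a group overlapped with the group it was compared with. The log2 fold change was 1.66 ± 0.21 (SE) for the diet (edgeR adjusted p = 0.000746), -0.88 ± 0.15 (SE) with Activin A (edgeR adjusted p = 0.00898) and -0.82 ± 0.18 (SE) with the hairpin (edgeR adjusted p = 0.00887). Without Activin A library 1 the Activin A change was -0.82 (edgeR adjusted p = 0.0534). Exons of Cxcl16 overlap those of Zmynd15 on the other strand over 552 bases. No source used here gives the strand setting of the counting, and Zmynd15 itself held 1874 counts over the 15 libraries, so its share in the Cxcl16 values was not tested.

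Ccr2, the receptor that carries inflammatory monocytes toward Ccl2, showed the largest diet effect of the 10. Ccr2 stood at 4.1, 3.83 and 3.68 CPM in Activin A livers, 11.4, 9.56 and 9.47 CPM in GFP livers on the NASH diet and 1.88, 0.906 and 0.552 CPM in chow GFP livers. Its level was 1.16, 2.06 and 1.74 CPM in Gpnmb hairpin livers and 5.8, 7.85 and 8.07 CPM in scramble livers. The hairpin libraries overlapped the chow libraries, whereas the Activin A libraries stayed above them. Its log2 fold change was 3.19 ± 0.38 (SE) for the diet (edgeR adjusted p = 0.000531), -1.39 ± 0.17 (SE) with Activin A (edgeR adjusted p = 0.00247) and -2.12 ± 0.25 (SE) with the hairpin (edgeR adjusted p = 0.000284). All 3 calls held in each of 12 alternatives. The effect of Activin A minus that of the hairpin was 0.73 ± 0.39 (SE) and did not pass (edgeR adjusted p = 0.378).

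Cx3cr1, the fractalkine receptor of monocytes and resident macrophages, rose on the diet and fell with the hairpin. Cx3cr1 stood at 3.71, 3.08 and 3.5 CPM in Activin A livers, 5.44, 7.82 and 4.68 CPM in GFP livers on the NASH diet and 1.58, 0.453 and 1.17 CPM in chow GFP livers. Its level was 2.57, 2.22 and 4.03 CPM in Gpnmb hairpin livers and 5.4, 8.2 and 7.45 CPM in scramble livers. Chow libraries lay lowest, and GFP library 2 stood above the other 2 GFP libraries. The diet change was 2.49 ± 0.42 (SE) (edgeR adjusted p = 0.00304) and the hairpin change -1.26 ± 0.25 (SE) (edgeR adjusted p = 0.00559). With Activin A the libraries did not overlap with GFP but the change of -0.80 ± 0.25 (SE) missed the threshold (edgeR adjusted p = 0.0967), and it passed without GFP library 3 (-0.94, edgeR adjusted p = 0.0359). The difference between the effects of Activin A and the hairpin was 0.45 ± 0.43 (SE) (edgeR adjusted p = 0.67).

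Vcam1, which binds the integrin alpha4 beta1 of monocytes and lymphocytes, had the highest counts of the 10 and the smallest errors. Vcam1 stood at 25.2, 20 and 21.3 CPM in Activin A livers, 46.5, 47.9 and 39.9 CPM in GFP livers on the NASH diet and 7.78, 7.63 and 10.4 CPM in chow GFP livers. Its level was 22.5, 23.3 and 19.1 CPM in Gpnmb hairpin livers and 33.7, 34.4 and 37.5 CPM in scramble livers. The Activin A and hairpin libraries covered nearly the same range, above all chow libraries and below all NASH diet control libraries. The log2 fold change was 2.41 ± 0.18 (SE) for the diet (edgeR adjusted p = 5.15e-05), -1.01 ± 0.12 (SE) with Activin A (edgeR adjusted p = 0.00217) and -0.71 ± 0.10 (SE) with the hairpin (edgeR adjusted p = 0.00073). These 3 calls held in each of 12 alternatives.

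Icam1, the ligand of the beta2 integrins LFA-1 and Mac-1, moved least among the called members. Icam1 stood at 11.9, 9.65 and 11 CPM in Activin A livers, 15.2, 15.4 and 17.4 CPM in GFP livers on the NASH diet and 11.5, 8.08 and 5.24 CPM in chow GFP livers. Its level was 11.3, 12.3 and 8.33 CPM in Gpnmb hairpin livers and 13.2, 20.4 and 17.4 CPM in scramble livers. The group ranges did not overlap in any of the 3 comparisons, though the gap between the lowest scramble library and the highest hairpin library was narrow. The log2 fold change was 0.98 ± 0.26 (SE) for the diet (edgeR adjusted p = 0.0283), -0.56 ± 0.13 (SE) with Activin A (edgeR adjusted p = 0.042) and -0.67 ± 0.18 (SE) with the hairpin (edgeR adjusted p = 0.0213).

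The Icam1 calls were the least stable of the set. They were lost in 5 of 12 alternatives on the diet, 7 with Activin A and 4 with the hairpin, with no change of sign. On the diet this happened without GFP library 1 (1.02, edgeR adjusted p = 0.0706), 2 (1.01, 0.0646) or 3 (0.91, 0.0683) and without chow library 2 (0.94, 0.0684). With Activin A it happened without Activin A library 1 (-0.63, edgeR adjusted p = 0.0922), 2 (-0.49, 0.159) or 3 (-0.57, 0.153) and without GFP library 1 (-0.60, 0.0723) or 2 (-0.58, 0.0704). With the hairpin it happened without hairpin library 3 (-0.52, edgeR adjusted p = 0.0618) and scramble library 2 (-0.53, 0.0861) or 3 (-0.66, 0.0726). With all 15 libraries in 1 fit, the edgeR adjusted p was 0.167 with Activin A and 0.0582 with the hairpin. Exons of Icam1 overlap those of Gm47079 on the other strand over 511 bases.

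**Figure D3:**
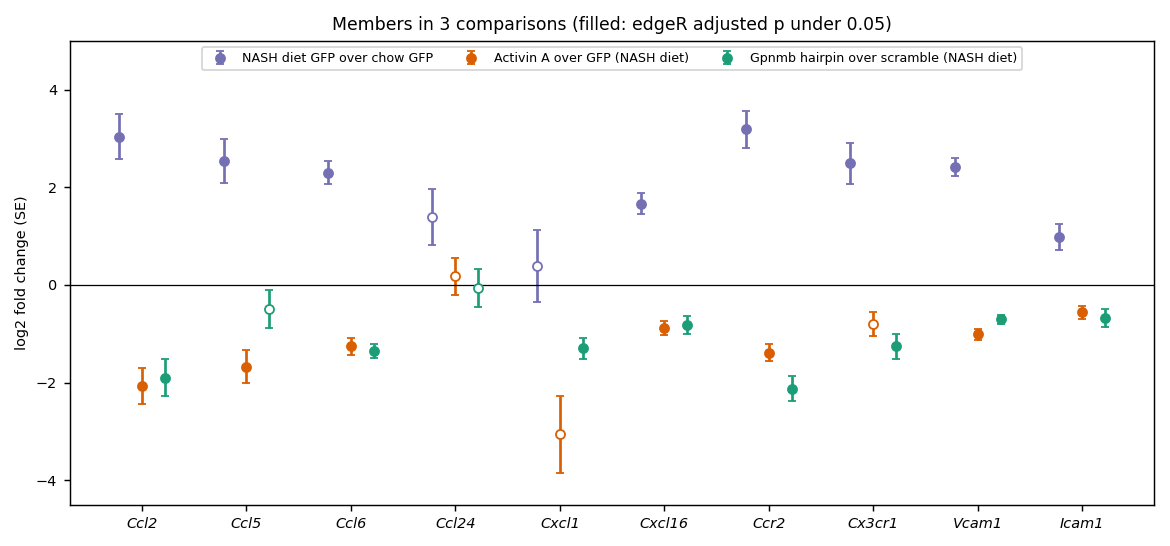
Log2 fold changes with SE of the 10 members in the diet, Activin A and Gpnmb hairpin comparisons, filled where the edgeR adjusted p was under 0.05. Filled diet points lie above 0 for 8 members, filled Activin A points below 0 for 7 and filled hairpin points below 0 for 8.

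Per kilobase of gene length, which allows levels of different genes to be compared, Cxcl1 (15 CPM per kilobase) and Ccl6 (10.8) led in NASH diet GFP livers, followed by Vcam1 (5.04) and Cxcl16 (4.9). The place of Cxcl1 rests on GFP library 2: without it, a setting chosen after seeing the data, Cxcl1 averaged 4.69 CPM per kilobase, below the means just given for Ccl6, Vcam1 and Cxcl16. In chow GFP livers Cxcl1 (11.6) and Ccl6 (2.25) led as well, while Ccr2 (0.165) and Cx3cr1 (0.237) were lowest.

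Group means of 9 members were lowest in chow. For Ccl2, Ccl5, Ccl6, Cxcl16, Ccr2 and Vcam1 the order was NASH diet GFP, scramble, then the 2 interventions, then chow, with means under Activin A below those of the hairpin for Ccl2 and Ccl5 and above them for the other 4. For Cx3cr1 and Icam1 scramble stood above GFP. Ccl24 was highest with Activin A and also lowest in chow, and Cxcl1 was lowest with the hairpin, with chow second to NASH diet GFP. Activin A and hairpin ranges overlapped for Ccl2, Ccl5, Ccl6, Ccl24, Cxcl1, Cxcl16, Cx3cr1, Vcam1 and Icam1 and not for Ccr2; these 2 groups were not tested against each other directly, since they carry different constructs with different controls.

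Whether the 2 interventions differed in effect was tested as the Activin A effect minus the hairpin effect, in 1 fit over all 15 libraries. By edgeR 0 of the 10 were called, against 4.04% of all 15665 genes in either direction. DESeq2 also called 0, and 1 (Ccl5) had an unadjusted edgeR p under 0.05. The difference was -0.19 ± 0.55 (SE) for Ccl2, 0.09 ± 0.27 (SE) for Ccl6, -0.07 ± 0.26 (SE) for Cxcl16 and -0.31 ± 0.19 (SE) for Vcam1. It was -1.77 ± 0.95 (SE) for Cxcl1. A p that misses the threshold does not show that the effects were equal, and the SE was widest for Cxcl1, then for Ccl24 (0.64) and Ccl2.

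The distance that remained from chow was read from Activin A livers on the NASH diet against chow GFP livers, in the same fit. Of the 10, 6 were higher and 1 was lower, against 11.8% of all genes in each direction. Library size alone as the scaling shifted the log2 fold changes by 0.22 and called 3415 genes higher and 964 lower (1853 and 1853 with TMM), with the same counts of 6 and 1 among the members. The log2 fold change was 1.76 ± 0.32 (SE) for Ccr2 (edgeR adjusted p = 0.000711), 1.65 ± 0.36 (SE) for Cx3cr1 (0.00291), 1.37 ± 0.14 (SE) for Vcam1 (2.91e-06) and 1.00 ± 0.21 (SE) for Ccl6 (0.00222). Cxcl16 (0.75 ± 0.20 (SE), edgeR adjusted p = 0.0111) and Ccl24 (1.53 ± 0.49 (SE), 0.032) were higher too. Cxcl1 was lower than in chow, with -2.70 ± 0.67 (SE) (edgeR adjusted p = 0.00697).

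Ccl2 (0.93 ± 0.49 (SE), edgeR adjusted p = 0.189), Ccl5 (0.83 ± 0.45 (SE), 0.195) and Icam1 (0.38 ± 0.23 (SE), 0.253) did not pass, which does not show that they had returned to the chow level. The Ccl24 call was lost in 6 of 12 alternatives, among them without Activin A library 1 (1.55, edgeR adjusted p = 0.0675) or 2 (1.25, 0.132) and chow library 1 (1.29, 0.113) or 2 (1.23, 0.0945). The Cxcl16 call was lost without Activin A library 3 (0.66, edgeR adjusted p = 0.0508), and Icam1 passed without chow library 1 (0.72, 0.0405).

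The 2 control groups on the NASH diet, scramble and GFP, differ in promoter and payload. Between scramble and GFP, edgeR called 0 of the 10, against 0.741% of all genes in either direction. DESeq2 also called 0, and 3 (Ccl5, Cxcl1 and Vcam1) had an unadjusted edgeR p under 0.05. Scramble over GFP was -0.96 ± 0.36 (SE) for Ccl5 (edgeR adjusted p = 0.199), -0.35 ± 0.13 (SE) for Vcam1 (0.198) and -2.06 ± 0.61 (SE) for Cxcl1 (0.115). The Cxcl1 value was -0.39 without GFP library 2 and passed without GFP library 3 (-2.52, edgeR adjusted p = 0.0115). For Ccl5, scramble libraries held 1.31, 2.04 and 1.37 CPM and GFP libraries 2.23, 3.53 and 3.44 CPM, with no overlap. Vcam1 (33.7, 34.4 and 37.5 CPM against 46.5, 47.9 and 39.9 CPM) and Ccr2 (5.8, 7.85 and 8.07 CPM against 11.4, 9.56 and 9.47 CPM) were also lower in scramble with no overlap. Ccr2 changed by -0.49 ± 0.26 (SE) (edgeR adjusted p = 0.367). The median log2 fold change of the 10 was -0.33, beside -0.01 over all genes. The share of all genes without overlap is not given here.

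Other CC chemokine ligands were followed through a list of 17 genes apart from the members, of which few were abundant enough to test. On the diet 2 rose and 1 fell of 6 tested, with Activin A 2 of 8 fell, and with the hairpin 3 of 7 fell. Their median log2 fold changes were 1.22, -1.62 and -0.19, beside -0.01, 0.00 and 0.00 over all genes. Ccl22, a ligand of Ccr4, held 5 counts in Activin A livers, 52 in NASH diet GFP livers and 1 in chow GFP livers, and passed in all 3 comparisons. Ccl7, a further Ccr2 ligand beside Ccl2 in the genome, held 1 count in hairpin livers and 54 in scramble livers and passed there (edgeR adjusted p = 0.00274). It also passed on the diet, with 40 counts in GFP livers and 1 in chow. No fold is given where a group held 3 counts or fewer.

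Ccl9, the gene next to Ccl6 on chromosome 11 and a ligand of Ccr1, went the other way from Ccl6 on the diet. Ccl9 stood at 10.9, 12.5 and 12.6 CPM with Activin A, 35.4, 39.6 and 25.4 CPM with GFP on the NASH diet and 64.7, 52.7 and 66 CPM in chow GFP livers. It stood at 24.5, 30.7 and 32.9 CPM in hairpin livers and 33.2, 33.1 and 34.1 CPM in scramble livers. Chow was the highest group and Activin A the lowest, with no overlap among Activin A, GFP and chow, while the highest hairpin library lay just below the lowest scramble library. Ccl9 fell on the diet (-0.83 ± 0.18 (SE), edgeR adjusted p = 0.0118) and fell with Activin A (-1.48 ± 0.17 (SE), 0.00162). With the hairpin it was -0.19 ± 0.11 (SE) (edgeR adjusted p = 0.226), and the 2 effects differed by -1.29 on the log2 scale (edgeR adjusted p = 0.00229). The diet call was lost with library size alone as the scaling (-0.58, edgeR adjusted p = 0.0559).

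**Figure D4:**
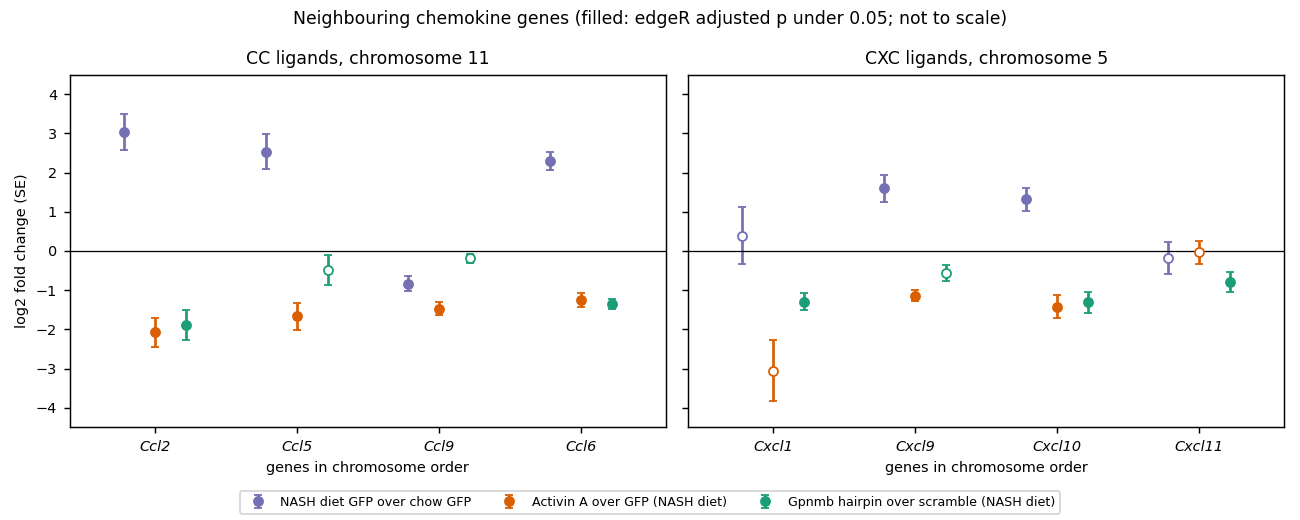
Log2 fold changes with SE for neighbouring chemokine ligand genes with at least 400 counts over the 15 libraries, in chromosome order and not to scale, filled where the edgeR adjusted p was under 0.05. On chromosome 11 the diet points of Ccl2, Ccl5 and Ccl6 lie above 0 and that of Ccl9 below it (-0.83), and on chromosome 5 the diet points of Cxcl9 and Cxcl10 are filled and that of Cxcl1 is not.

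Of the CXC, CX3C and XC ligands other than the members, 4 of 9 rose on the diet, 3 of 9 fell with Activin A, and with the hairpin 3 fell and 1 rose of 9. The medians were 1.32, -0.98 and -0.80. Cxcl9 and Cxcl10 are interferon-induced ligands of Cxcr3. Cxcl9 averaged 7.33 ± 0.54 CPM (SD, n = 3) in Activin A livers, 16.2 ± 1.43 CPM in GFP livers and 5.53 ± 2.88 CPM in chow. Cxcl10 fell with Activin A (-1.42 ± 0.29 (SE), edgeR adjusted p = 0.0214) and with the hairpin (-1.31 ± 0.27 (SE), 0.00591). Cx3cl1, the ligand of Cx3cr1, averaged 1.31 ± 0.246 CPM with Activin A, 3.54 ± 1.3 CPM in GFP livers and 0.605 ± 0.232 CPM in chow, and 1.01 ± 0.346 CPM with the hairpin against 2.69 ± 0.61 CPM with scramble (SD, n = 3 each). It passed in all 3 comparisons, narrowly with Activin A (edgeR adjusted p = 0.0485). The ligand that rose with the hairpin was Cxcl12, by 0.32 ± 0.07 (SE) (edgeR adjusted p = 0.00651), a homeostatic ligand of Cxcr4.

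Of the other chemokine receptors, 3 of 11 tested rose on the diet, and with the hairpin 3 fell and 1 rose of 12. With Activin A none of 12 passed by edgeR or DESeq2 (2 at an unadjusted p under 0.05). The medians were 0.73, -0.43 and -0.56. Cxcr4, the receptor of Cxcl12, averaged 4.02 ± 1.98 CPM with GFP on the NASH diet and 0.664 ± 0.171 CPM in chow, and 1.39 ± 0.211 CPM with the hairpin against 3.21 ± 0.858 CPM with scramble (SD, n = 3 each). It rose on the diet (2.63 ± 0.49 (SE), edgeR adjusted p = 0.00497) and fell with the hairpin (-1.21 ± 0.29 (SE), 0.0136). The hairpin call was lost without scramble library 2 (-1.04, edgeR adjusted p = 0.0685) or 3 (-1.16, 0.0629). Ackr2, a decoy receptor that clears inflammatory CC chemokines, was the one that rose with the hairpin, averaging 7.49 ± 1.49 CPM against 3.41 ± 0.85 CPM with scramble (1.13 ± 0.23 (SE), edgeR adjusted p = 0.00564). Cxcr6, the receptor of Cxcl16, had changes of 1.28 ± 0.57 (SE), -0.75 ± 0.65 (SE) and -0.72 ± 0.54 (SE) on the diet, with Activin A and with the hairpin, and none passed (edgeR adjusted p = 0.161, 0.6 and 0.364).

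The counterparts of Vcam1 and Icam1 on leukocytes, a list of integrins with L-selectin and the selectin ligand, rose in 10 of 15 tested on the diet and fell in 4 of 16 with either intervention. The medians were 1.60, -0.66 and -0.59. Itgb2, the beta2 chain of the Icam1 receptors, averaged 9.44 ± 1.14 CPM with Activin A, 20.7 ± 4.51 CPM in GFP livers and 4.35 ± 0.832 CPM in chow (SD, n = 3). It averaged 9.53 ± 1.84 CPM with the hairpin and 20.2 ± 3.13 CPM with scramble. Itgax (CD11c) rose on the diet by 3.53 ± 0.29 (SE) (edgeR adjusted p = 8.25e-05) and fell in both intervention comparisons, with -1.68 ± 0.18 (SE) for Activin A (edgeR adjusted p = 0.00135) and -2.47 ± 0.23 (SE) for the hairpin (edgeR adjusted p = 8.58e-05).

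Of the endothelial adhesion and junction genes other than the members, 6 of 13 rose on the diet and 5 of 14 fell with the hairpin. With Activin A none of 13 passed by edgeR, 2 had an unadjusted p under 0.05, and 1 passed by DESeq2. The medians were 0.74, -0.14 and -0.33. Pecam1, a junction molecule of endothelium, averaged 27.9 ± 3.18 CPM in GFP livers and 14.2 ± 1.39 CPM in chow, and 20 ± 1.93 CPM with the hairpin and 26.7 ± 2.8 CPM with scramble (SD, n = 3). Icam2, a further integrin ligand, fell with the hairpin (-1.20 ± 0.25 (SE), edgeR adjusted p = 0.00584).

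Of 20 genes of the NF-kB pathway and its inhibitors, known to control Ccl2, Cxcl1, Vcam1 and Icam1, 6 of 19 tested rose on the diet, 3 of 19 fell with Activin A and 11 of 20 fell with the hairpin. Relb, a subunit of the non-canonical branch, averaged 1.95 ± 0.413 CPM with Activin A, 6.64 ± 0.666 CPM in GFP livers and 1.64 ± 0.168 CPM in chow, and 2.06 ± 0.557 CPM with the hairpin against 6.06 ± 1.72 CPM with scramble (SD, n = 3 each). Tnfaip3, which encodes the inhibitor A20, changed by 2.17 ± 0.28 (SE) on the diet, -1.04 ± 0.21 (SE) with Activin A and -0.89 ± 0.14 (SE) with the hairpin (edgeR adjusted p = 0.000749, 0.0192 and 0.00129).

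Of the monocyte and macrophage markers, 10 of 10 tested rose on the diet, 10 of 11 fell with Activin A and 10 of 11 fell with the hairpin. Their summed level was 189 to 215 CPM over the Activin A libraries, 487 to 582 CPM over GFP, 207 to 282 CPM over the hairpin, 433 to 540 CPM over scramble and 154 to 159 CPM over chow, with none of the 12 markers at 0 in any group. Kupffer cell markers rose in 3 of 8 on the diet, fell in 1 of 8 with Activin A, and with the hairpin fell in 2 and rose in 1. Their sums were 359 to 406 CPM with Activin A, 370 to 518 CPM with GFP, 365 to 446 CPM with the hairpin, 518 to 536 CPM with scramble and 191 to 271 CPM in chow. The part of these markers in the members' changes was not tested.

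Neutrophil markers, the cells drawn by Cxcl1, summed to 2.51 to 4.91 CPM with Activin A, 7.31 to 8.78 CPM with GFP, 3.05 to 5.88 CPM with the hairpin, 5.27 to 9.41 CPM with scramble and 1.52 to 2.57 CPM in chow, and 3 of 3 tested rose on the diet. With Activin A none of the 3 passed by edgeR or DESeq2 (2 at an unadjusted p under 0.05), and with the hairpin 1 of 2 fell (Csf3r, -0.96 ± 0.26 (SE), edgeR adjusted p = 0.0238). Much of these sums was Csf3r, which averaged 4.74 CPM with GFP and 5.67 CPM with scramble. S100a8 averaged 1.09 and 0.39 CPM in these 2 groups, and S100a9 1.23 and 0.567 CPM. The sums therefore mainly follow 1 gene. T and NK cell markers were scarce, with sums of 3.71 to 7.49 CPM with Activin A, 6.82 to 10.8 CPM with GFP, 3.79 to 4.68 CPM with the hairpin, 4.53 to 5.96 CPM with scramble and 4.34 to 6.26 CPM in chow. On the diet 1 of 4 tested rose (Cd8a, 91 counts in GFP livers and 3 in chow, edgeR adjusted p = 0.0027), and with Activin A none of 6 passed by edgeR or DESeq2 (1 at an unadjusted p under 0.05). With the hairpin 1 of 4 rose, the perforin gene Prf1 (1.56 ± 0.50 (SE), edgeR adjusted p = 0.0442), a call that DESeq2 did not make (adjusted p = 0.0831) and that was lost without any single library of either group (edgeR adjusted p = 0.0720 to 0.143). The defining eosinophil markers were nearly absent, with Prg2 and Il5ra at 0 in GFP and hairpin livers, and Ear2, which macrophages also express, was the 1 eosinophil marker tested. It averaged 1.49 ± 0.768 CPM with Activin A, 5.66 ± 1.66 CPM in GFP livers and 1.01 ± 0.606 CPM in chow (SD, n = 3). B and plasma cell markers summed to 15.3 to 21.4 CPM with Activin A, 7.34 to 16.4 CPM with GFP and 4.68 to 8.34 CPM in chow. Their sums were 3.21 to 4.1 CPM with the hairpin and 3.92 to 4.71 CPM with scramble. None passed by edgeR on the diet, with Activin A or with the hairpin. With Activin A 1 of 6 was higher by DESeq2, and the median log2 fold change was 0.46 (0.90 on the diet, -0.32 with the hairpin).

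Of 8 markers of hepatocytes, the main cell type of the tissue, 3 fell on the diet (5 by DESeq2), 1 rose with Activin A (2 by DESeq2) and 5 rose with the hairpin (6 by DESeq2). Their sums were 75906 to 78269 CPM with Activin A, 60710 to 73364 CPM with GFP, 77237 to 81272 CPM with the hairpin, 61840 to 73442 CPM with scramble and 85044 to 115646 CPM in chow. Group ranges did not overlap in any of the 3 comparisons. Much of each sum was Alb, the albumin gene, which held 4.53% to 6.70% of all counts in a library. The separation of the sums therefore need not hold for each marker. Cps1, the first enzyme of the urea cycle, fell on the diet (-1.02 ± 0.21 (SE), edgeR adjusted p = 0.00842) and rose with the hairpin (1.05 ± 0.14 (SE), 0.000728). Ttr, the transthyretin gene, fell on the diet (-0.75 ± 0.21 (SE), edgeR adjusted p = 0.0304) and rose with Activin A (1.03 ± 0.11 (SE), 0.00119), and its diet call was lost with library size alone as the scaling (-0.49, edgeR adjusted p = 0.0766) and without any 1 of the GFP libraries or chow library 2 or 3 (edgeR adjusted p = 0.0512 to 0.0831). The part of these markers in the members' values was not tested.

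Sinusoidal endothelial markers, from the cells that display Vcam1 and Icam1 to the blood, changed in few of 10: 1 rose on the diet, 1 rose and 1 fell with Activin A, and 3 fell with the hairpin. Their sums were 308 to 346 CPM with Activin A, 240 to 325 CPM with GFP, 251 to 344 CPM with the hairpin, 332 to 388 CPM with scramble and 200 to 257 CPM in chow. Stellate cell and fibroblast markers rose in 8 of 10 on the diet and fell in 2 of 10 with Activin A and 6 of 10 with the hairpin. Biliary markers rose in 4 of 6 on the diet and fell in 2 of 6 with Activin A. With the hairpin none of 7 passed by edgeR or DESeq2 (2 at an unadjusted p under 0.05). Of 8 immediate early genes, which also respond to tissue handling, 3 rose on the diet, 2 fell with Activin A and 4 fell with the hairpin. Their summed level was 145 to 197 CPM with Activin A, 239 to 291 CPM with GFP, 95.6 to 146 CPM with the hairpin, 177 to 207 CPM with scramble and 197 to 274 CPM in chow, and their part in the members' values was not tested.

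**Figure D5:**
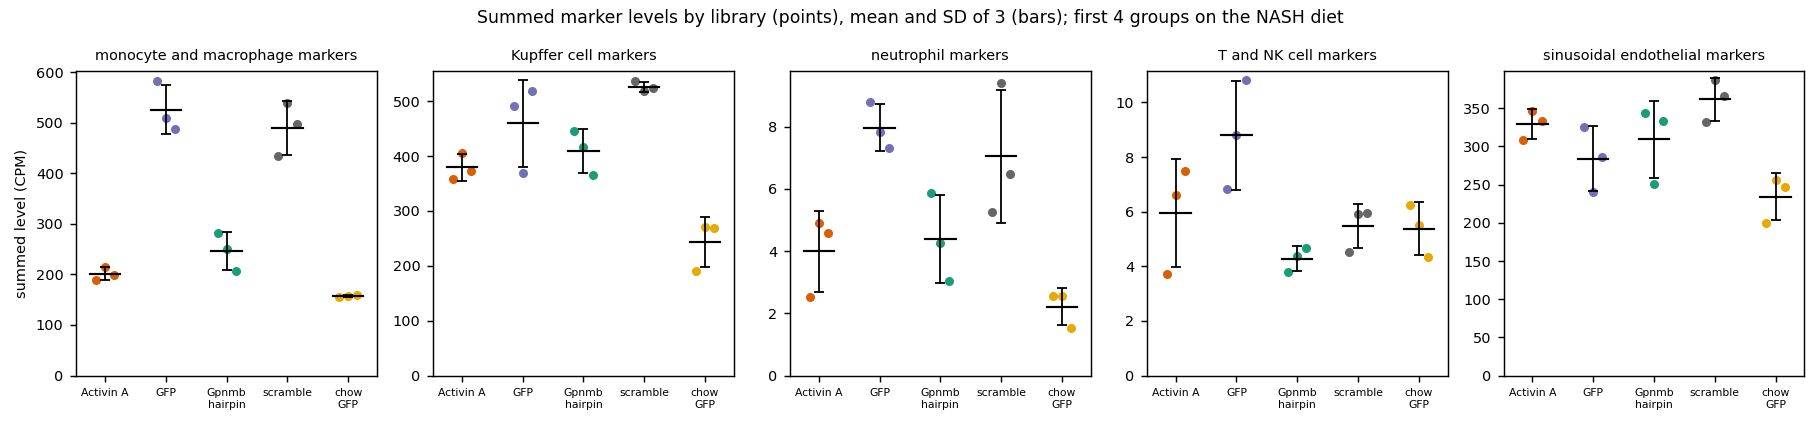
Summed levels in CPM of 5 marker lists in each library (points), with the mean and SD of each group of 3. Monocyte and macrophage markers separate the Activin A (189 to 215 CPM) and hairpin (207 to 282 CPM) libraries from GFP (487 to 582 CPM) and scramble (433 to 540 CPM), while sinusoidal endothelial sums of Activin A and GFP overlap.

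Genes with the nearest pattern over the 5 group means were looked up for every member among 11787 abundant genes. Icam1 lay nearest to Adamdec1 (distance 0.0575 on the log2 CPM scale) and Pdgfrb (0.0581), Vcam1 to Vav1 (0.112) and Fcgr4 (0.167), and Ccl6 to Ms4a6c (0.147) and Arhgap27 (0.168). Ccr2 lay nearest to Atf3 (0.461) and Rgs1 (0.494), Cx3cr1 to B4galt6 (0.33), Cxcl16 to Ppl (0.148), and Ccl2 to Col1a1 (0.356). Ccl5 lay nearest to Fblim1 (0.141) and Ccl24 to Napepld (0.225). With 5 means a close match is a description of shape only.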

How the data were processed

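Liver RNA from 15 samples in 5 groups of 3 had been purified with a Qiagen RNeasy kit and sequenced from TruSeq stranded mRNA libraries, per the labels' protocols. The authors deposited 3 tables of whole-number counts per gene and library, not normalized, per the file headers, on GRCm38 (mm10), per the submitters' processing notes. Per the file headers, the authors also deposited log2 fold changes and p-values, raw and adjusted, and other columns such as gene length. No source used here names the aligner, the counting program or its strand setting. A further 36 per-library columns of normalized values were not used.

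Genes were filtered with filterByExpr (minimum count 10), scaled with TMM and tested in R 4.3.3 by edgeR 4.0.16 (quasi-likelihood F test, two-sided), with Benjamini-Hochberg adjustment over all genes tested and a threshold of 0.05. The diet, Activin A and hairpin fits held only the 6 libraries of their table. The other comparisons used 1 fit over the joined counts of all 15 libraries, with a gene missing from a table set to 0 there. The SE is the log2 fold change divided by the square root of F. All 10 members passed the filter in the main fit of each comparison. CPM used TMM factors over all 15 libraries, and depth of 15276879 to 23467867 counts sets their precision. Replicate pairs differed by more than sampling noise (chi-square per degree of freedom at least 5.54). The fitting steps were tested on simulated data. Alternatives were other scaling, no filter, DESeq2 1.42.0, a replicate block, other samples in the fit and each library left out. Named genes were all members, from each list up to 3 called genes with the smallest p per comparison and called genes against the majority of their list, Inhba, Gpnmb, and for each member the 2 genes nearest in centred group-mean log2 CPM. Cxcr6 and Saa1's levels were added after their values were seen. For the receptor list, 1 gene is not reported here. Members and lists were chosen with earlier results of these data known.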

Additional observations from a re-analysis of the deposited data

Results flagged for a closer look

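The effect of Activin A differed from that of the Gpnmb hairpin by the test of the difference itself for 6 of 68 list genes, and for none of the 10 members. Of all 15665 genes, 4.04% passed this test. The 68 were picked by the naming rule, as genes called in the diet, Activin A or hairpin comparison. The 6 therefore need not be the total over the full lists. The Activin A and hairpin effects used for that choice also form the tested difference. The 6 of 68 therefore cannot be weighed against the share of all genes. The log2 difference, Activin A effect minus hairpin effect, was -1.29 for the CC chemokine Ccl9, which fell with Activin A and did not pass with the hairpin. It was -2.45 for the biliary transcription factor Ehf and 1.26 for the immediate early gene Jun. Among hepatocyte markers it was -0.90 for Cps1, -0.86 for Hnf4a and 1.11 for Ttr, so the 3 did not differ in 1 direction.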

How the results depend on the processing

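Of the members' calls, those of Ccl6, Ccr2 and Vcam1 in the diet, Activin A and hairpin comparisons held under each of 12 alternatives. The members called lower with Activin A numbered 7, and 3 to 9 when each library was left out in turn. No filter on low counts called 1 member lower, Cxcl1, in the difference of effects and 1 between scramble and GFP, and leaving out each library in turn gave 0 to 1 there. Cxcl1 on the diet turned negative with a replicate block (-0.27) and ran from -1.28 to 1.05 with each library left out. Leaving out libraries moved Ccl24 between -0.10 and 0.41 with Activin A and between -0.23 and 0.10 with the hairpin. In the difference of effects it moved Ccl2 between -0.47 and 0.022, Ccl6 between -0.018 and 0.25, Ccl24 between -0.048 and 0.46, Cxcl16 between -0.20 and 0.13 and Icam1 between -0.042 and 0.26. Between scramble and GFP it moved Ccl2 between -0.18 and 0.13 and Icam1 between -0.066 and 0.24. With only Activin A and chow libraries in the fit, Ccl2 did not pass the filter and has no value. None of these sign changes passed a threshold, and the cause was not tested.

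Counts over all genes moved more. On the diet 2445 genes were called, against 1597 with the replicate block, 4500 with all 15 libraries in 1 fit and 1355 to 2233 with a library left out. With Activin A 806 were called, against 1253 with no filter and 248 to 1435 with a library left out. With the hairpin 3601 were called, against 1880 with all 15 libraries in 1 fit and 1923 to 3496 with a library left out. The difference of effects called 633, against 1051 with only its own groups in the fit and 367 to 710 with a library left out. Scramble against GFP called 116, against 77 with library size alone, 634 with no filter, 509 by DESeq2, 68 with the replicate block, 49 with only its own groups and 13 to 863 with a library left out. Replicate numbers gave no sign of pairing: same-numbered libraries correlated between -0.13 and 0.09 in their deviations from the group means. Differently numbered libraries correlated between -0.14 and 0.18. With 3 libraries per group these values cannot exclude a pairing. The replicate block also gave Icam1 an edgeR adjusted p of 0.0505 on the diet and 0.0779 with Activin A, and Cxcl1 one of 0.0202 with Activin A. Low counts limit Ccl2, Ccl5 and Ccl24.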
